A study of Mus musculus with 35 samples.

Results

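DUX, its relatives and the genes reported to switch it on were followed in 35 single mouse embryos. The 7 genes were Duxf3, which encodes DUX, its relatives Duxbl1, Duxbl2 and Duxbl3, and the reported activators Dppa2, Dppa4 and Nelfa. They were chosen by symbol through GENCODE M21 on GRCm38 and are 7 of the 54838 gene rows in each count file.

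DUX is a homeodomain transcription factor made in a short burst from a tandem gene array on chromosome 10, as the embryo begins to transcribe its own genome. It binds and activates genes of the 2-cell stage, such as the Zscan4 family, together with the endogenous retrovirus MERVL. Duxbl genes lie in a separate cluster on chromosome 14 and encode related homeodomain proteins. DPPA2 and DPPA4 are chromatin proteins that bind each other and can induce Dux in mouse embryonic stem cells. NELFA is a subunit of NELF, the negative elongation factor that holds RNA polymerase II paused near promoters, and has been reported as a maternal activator of Dux.

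All embryos were F1 (C57BL/6J x CBA/H), were injected as zygotes 24 h after hCG, which induces ovulation, and were collected as late 2-cell embryos at 48 h. The 10 double-LOF embryos received an antisense oligonucleotide against DUX together with mRNA of a dominant negative form of SRF, serum response factor. The 9 DUX-LOF embryos received the DUX oligonucleotide without the mRNA, the 7 SRF-LOF embryos received the mRNA without an oligonucleotide, and the 9 control embryos received a scrambled oligonucleotide. SRF-LOF and control embryos therefore differ in the oligonucleotide as well as in the mRNA, and no group received a control mRNA. Double-LOF and SRF-LOF embryos differ in an oligonucleotide against none, not in a DUX against a scrambled oligonucleotide. The labels do not say whether the DUX oligonucleotide degrades its target RNA or blocks it, so reads on Duxf3 need not follow the DUX protein. Each library is 1 whole embryo, and fewer cells with a transcript cannot be told apart from less of it per cell.

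Polyadenylated RNA was read with Smart-seq+5′, which gives reads from inside transcripts (internal reads) and reads from their 5′ ends. Gene counts per embryo ranged from 220921 to 2039475 in internal reads and from 505157 to 2343900 in 5′ reads, and 12915 to 21863 genes were detected in internal reads. No pair of the libraries held identical counts. The summed level of 47 maternal oocyte transcripts ranged from 9107 to 44809 CPM (counts scaled to the size of each library) in double-LOF, from 17542 to 32067 CPM in DUX-LOF, from 29210 to 85963 CPM in SRF-LOF and from 18308 to 55415 CPM in control embryos. The summed level of 39 DUX-linked 2-cell genes, Duxf3 among them, ranged from 924 to 4417 CPM in double-LOF, from 1133 to 2534 CPM in DUX-LOF, from 4641 to 14030 CPM in SRF-LOF and from 1908 to 18190 CPM in control embryos. In internal reads, summed markers of cumulus cells reached at most 30.5 CPM and those of sperm 19.7 CPM, with 0 of 9 and 0 of 6 high enough to test. In 5′ reads the sperm markers summed to at most 34.2 CPM, in SRF-LOF embryos, and 1 was tested. It was lower in double-LOF than in SRF-LOF embryos (log2 fold change -2.26, edgeR adjusted p under 0.05), as were 12.9% of all genes. Its part in the results was not tested. The 8 blood cell markers summed in internal reads to 39.0 to 131 CPM in double-LOF, 71.1 to 175 CPM in DUX-LOF, 10.4 to 106 CPM in SRF-LOF and 15.6 to 159 CPM in control embryos, and 3 were tested. Of these, Cd68, a macrophage glycoprotein, was higher in DUX-LOF than in control embryos (1.93 ± 0.54 on the log2 scale, edgeR adjusted p = 0.0108), and Lyz2, a lysozyme of myeloid cells, was higher in double-LOF than in SRF-LOF embryos (2.45 ± 0.93, edgeR adjusted p = 0.0444). The median log2 fold change of the 3 was 1.08 in double-LOF, 1.06 in DUX-LOF and -0.94 in SRF-LOF, each against control, and their part in the results was not tested.

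All members but Nelfa share sequence with other genes. The stretches printed here show Duxf3 beside a Duxbl gene and beside an array neighbour. The first pair is the closest ungapped coding stretch of Duxf3 and Duxbl1, at chr10:58232177-58232290 (minus strand) and within chr14:25987528-25988786 (plus strand, spanning an intron), with the 33 of 114 bases that differ in capitals. Both are written 5′ to 3′ on the coding strand from the GENCODE transcripts.
Duxf3: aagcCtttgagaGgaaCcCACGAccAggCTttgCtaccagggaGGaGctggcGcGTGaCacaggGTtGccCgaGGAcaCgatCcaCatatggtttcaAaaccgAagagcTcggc
Duxbl1: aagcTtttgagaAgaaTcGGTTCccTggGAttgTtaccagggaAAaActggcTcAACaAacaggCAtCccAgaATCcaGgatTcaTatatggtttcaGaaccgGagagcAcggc
The second pair is from Duxf3, at chr10:58232058-58232177, and its array neighbour Gm4981, at chr10:58236097-58236216, both on the minus strand. It is the first 120 bases of their longest ungapped aligned stretch, not chosen as the closest, and 14 of 120 bases differ.
Duxf3: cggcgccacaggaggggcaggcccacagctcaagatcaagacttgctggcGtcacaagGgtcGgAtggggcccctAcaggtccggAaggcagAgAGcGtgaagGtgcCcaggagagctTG
Gm4981: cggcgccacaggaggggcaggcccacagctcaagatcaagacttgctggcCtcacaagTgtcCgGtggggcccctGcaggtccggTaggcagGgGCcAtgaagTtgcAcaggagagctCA
The coding sequences of Duxbl1, Duxbl2 and Duxbl3 were identical over 1050 of 1050 bases.

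How the authors' counting treated reads that match several genes is not given in the sources used here, so shared sequence was counted instead. Of all 50-base words in Duxf3 exons, 47% also occurred in transcripts of other genes. AW822073 of the same array held 32.5% of the Duxf3 words, Gm10807 21.1%, Gm4981 6.71% and Gm19459 4.14%. The share was 93.5% for Duxbl1, 100% for Duxbl2 and 93.5% for Duxbl3, all of it among these 3 genes. It was 29.1% for Dppa2 and 31.3% for Dppa4, shared with other gene rows such as Gm9788 and Gm14058, and 0% for Nelfa. Values of single Dux and Duxbl genes are therefore uncertain, and sums over the array or the family are given beside them. Duxbl2 also lies within the span of Cphx3 on the same strand, and the 3′ end of Nelfa overlaps that of Nsd2 on the opposite strand.

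In control embryos the members spanned a wide range of levels. Per kilobase of exon, Dppa4 averaged 95.8 ± 67.9 CPM, Dppa2 64.0 ± 27.1 CPM and Nelfa 42.7 ± 20.6 CPM in internal reads (SD, n = 9). These neighbours in the order differed by less than the larger SD of each pair. Duxbl1 followed at 11.9 ± 3.1 CPM per kilobase, Duxf3 at 3.34 ± 2.66 CPM per kilobase, Duxbl2 at 0.471 ± 0.261 CPM per kilobase and Duxbl3 at 0.429 ± 0.238 CPM per kilobase. Each of the steps to Duxbl1, to Duxf3 and to Duxbl2 was larger than those SDs, and Duxbl2 and Duxbl3 did not differ beyond them. Those SDs do not cover the sharing of reads between genes, and its part in these steps was not tested. Between internal and 5′ reads of the same embryo, log2(CPM + 1) correlated at Pearson's r from 0.73 to 0.91 for Duxf3, Duxbl1, Dppa2, Dppa4 and Nelfa over 35 embryos. For Duxbl2 and Duxbl3, both read classes gave unlike values, with r of 0.16 and 0.15.

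Enough reads for a test were present for 6 of 7 members in internal reads (all but Duxbl2) and for 5 in 5′ reads (all but Duxbl2 and Duxbl3). A gene is called below where edgeR's quasi-likelihood test, fitted to all genes and all 4 groups, gave a Benjamini-Hochberg adjusted p under 0.05. In internal reads, 1 of 6 members was lower in double-LOF than in control embryos and 0 were higher, where 9.8% of 11940 genes were lower and 9.58% higher. Between DUX-LOF and control embryos 1 of 6 was lower and 1 higher, where 8.22% of all genes were lower and 8.74% higher. For SRF-LOF against control embryos, 0 of 6 members passed in edgeR, in DESeq2 or at an unadjusted p under 0.05, where 1.67% of all genes were called and 23.5% had such an unadjusted p. Double-LOF against DUX-LOF embryos likewise gave 0 of 6 by each of these counts, where 0.00838% of all genes were called and 6.21% had an unadjusted p under 0.05. Double-LOF against SRF-LOF embryos gave 2 of 6 lower and 0 higher, where 13.2% of all genes were lower and 14.3% higher.

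In 5′ reads, double-LOF against control embryos gave 0 of 5 calls by edgeR, 1 by DESeq2, and 1 with an unadjusted p under 0.05, where 21.6% of 11749 genes were called and 33.7% had such an unadjusted p. DUX-LOF against control embryos gave 1 of 5 lower and 0 higher, where 9.22% of all genes were lower and 8.65% higher. For SRF-LOF against control embryos the count was 0 of 5 by edgeR, 1 by DESeq2, and 2 with an unadjusted p under 0.05, where 2.04% of all genes were called by edgeR and 23.7% had such an unadjusted p. The shares of all genes called by DESeq2 in 5′ reads are not given here, so its member counts are not set against other genes. Double-LOF against DUX-LOF embryos gave 0 of 5 by edgeR, by DESeq2 and with an unadjusted p under 0.05, where 0.017% of all genes were called and 7.13% had such an unadjusted p. Double-LOF against SRF-LOF embryos gave 3 of 5 lower and 0 higher, where 12.9% of all genes were lower and 14.3% higher. The interaction was (double-LOF minus DUX-LOF) minus (SRF-LOF minus control). Only the second difference involves the scrambled oligonucleotide, so the interaction does not isolate how SRF-LOF acts with and without the DUX oligonucleotide. It gave 0 calls among members in both read classes by edgeR and by DESeq2. At an unadjusted p under 0.05 in edgeR it gave 0 members in internal and 1 in 5′ reads. Over all genes it gave 0% called by edgeR in both classes, 0 genes by DESeq2, and 6.88% and 6.41% at an unadjusted p under 0.05 in internal and 5′ reads.

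**Figure D1:**
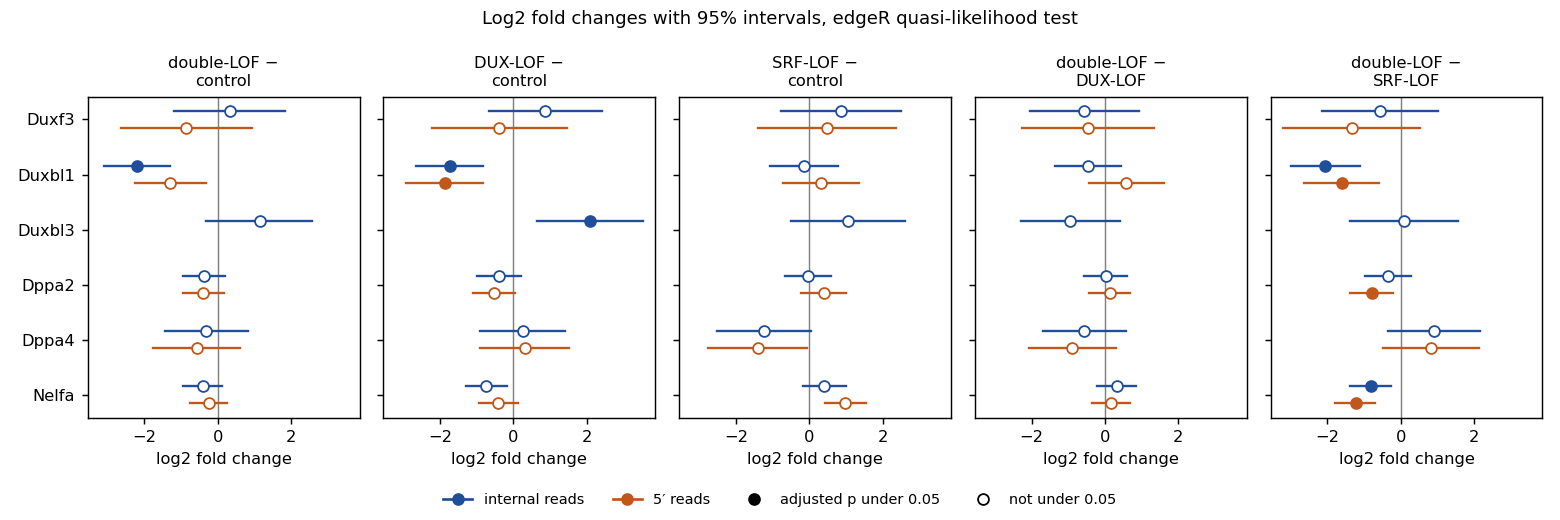
Log2 fold changes (horizontal axis) of the 6 members tested, in 5 comparisons, from internal reads (blue) and 5′ reads (orange), with 95% intervals from the standard error and a normal quantile; filled points had an adjusted p under 0.05. Duxbl1 lies left of 0 wherever embryos with the DUX oligonucleotide are set against embryos without it, while intervals of Duxf3 cross 0 in every panel.

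Duxf3 (ENSMUSG00000075046.7, chromosome 10, 58229979 to 58232675, minus strand), the gene behind the target of the oligonucleotide, was covered by 504 internal reads over all 35 embryos. In double-LOF embryos 1 to 10 its level was 11, 0.720, 11.8, 3.51, 4.80, 0, 19, 3.30, 19.5 and 34.3 CPM. In DUX-LOF embryos 3, 4, 5, 6, 7, 8, 10, 11 and 12 it was 0.699, 6.10, 1.75, 0, 2.83, 1.76, 117, 6.77 and 8.12 CPM. DUX-LOF embryo 10 alone held 151 of the 191 DUX-LOF reads, and the other 8 embryos lay within the range of the other groups. SRF-LOF embryos 3 to 9 had 4.27, 41.5, 10.6, 16.6, 22.3, 7.16 and 11.8 CPM. Control embryos 1, 2, 3, 4, 5, 6, 8, 9 and 10 had 2.94, 6.18, 0, 11.1, 3.98, 7.96, 15, 23.8 and 10.1 CPM. All 4 groups overlapped.

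The means of Duxf3 were 10.8 ± 10.9 CPM in double-LOF (SD, n = 10), 16.1 ± 38.0 CPM in DUX-LOF (n = 9), 16.3 ± 12.6 CPM in SRF-LOF (n = 7) and 9.02 ± 7.19 CPM in control embryos (n = 9). Without embryo 10, DUX-LOF embryos averaged 3.50 ± 3.06 CPM (n = 8). Against control embryos the fitted log2 fold change was 0.32 ± 0.78 in double-LOF (SE, edgeR adjusted p = 0.823), 0.87 ± 0.78 in DUX-LOF (0.488) and 0.87 ± 0.83 in SRF-LOF (0.505). The DUX-LOF value turned to -1.23 ± 0.68 without embryo 10, which also missed the threshold (edgeR adjusted p = 0.238). Pooled over embryos, DUX-LOF without embryo 10 had 4.05 CPM (exact Poisson 95% interval 2.89 to 5.51 CPM) and control embryos 8.12 CPM (6.47 to 10.1 CPM), intervals that cover counting error and not the spread between embryos.

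Per-embryo levels were also compared by two-sided exact permutation tests of mean log2(CPM + 1), 6 in all. In internal reads the difference from control was -0.02 for double-LOF (exact permutation p = 0.974, adjusted p = 0.974), -0.50 for DUX-LOF (exact p = 0.55, adjusted p = 0.66) and 0.93 for SRF-LOF (exact p = 0.151, adjusted p = 0.66). Without DUX-LOF embryo 10 the DUX-LOF difference was -1.07 (exact permutation p = 0.101, adjusted p = 0.303). In neither read class did Duxf3 differ between the groups beyond the spread of the embryos, which does not show equal levels.

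The 5′ reads of Duxf3 were fewer still, 198 over all embryos. They reached 10.7 CPM in double-LOF (lowest 0, median 2.16), 26.2 CPM in DUX-LOF (lowest 0, median 0), 19.6 CPM in SRF-LOF (lowest 0, median 5.27) and 18.3 CPM in control embryos (lowest 0, median 4.26). No 5′ read fell on Duxf3 in 5 of 9 DUX-LOF, 2 of 10 double-LOF, 1 of 7 SRF-LOF and 2 of 9 control embryos, and DUX-LOF embryo 10 was again the highest of its group. Differences from control in mean log2(CPM + 1) were -0.45 for double-LOF (exact permutation p = 0.498), -0.79 for DUX-LOF (exact p = 0.331) and 0.60 for SRF-LOF (exact p = 0.457), each with an adjusted p of 0.66. Without DUX-LOF embryo 10 the DUX-LOF difference was -1.23 (exact permutation p = 0.0998, adjusted p = 0.303).

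Neighbouring rows of the array were read in the same way. Gm4981 (chromosome 10, 58234848 to 58236701, minus strand) had a lowest, median and highest level of 0, 8.27 and 53.7 CPM in double-LOF and 0, 12.2 and 26.4 CPM in DUX-LOF embryos, internal reads. In SRF-LOF embryos these were 19.6, 27.8 and 135 CPM, and in control embryos 2.21, 11.3 and 26.6 CPM. SRF-LOF embryos were high, with 5 of 7 above the highest control, although the groups overlapped. Their log2 fold change against control, 2.23 ± 0.66, missed the threshold (edgeR adjusted p = 0.064), while double-LOF against SRF-LOF embryos gave -2.08 ± 0.64 (adjusted p = 0.0143). In 5′ reads the same comparisons gave 1.88 ± 0.64 (adjusted p = 0.0898) and -1.44 ± 0.61 (adjusted p = 0.0754). Within groups, log2(CPM + 1) of Gm4981 correlated with the summed maternal transcripts at r = 0.67 over 35 embryos that share libraries and depth, and the part of maternal RNA in its level was not tested.

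Summed over Duxf3, Gm4981, AW822073, Gm10807 and Gm19459, the array held 40.3 ± 41.8 CPM in double-LOF, 47.1 ± 88.8 CPM in DUX-LOF, 92.6 ± 68.0 CPM in SRF-LOF and 31.0 ± 27.2 CPM in control embryos. DUX-LOF embryo 10 stood at 282.5 CPM, and the other DUX-LOF embryos lay between 4.39 and 30.2 CPM and averaged 17.7 ± 10.1 CPM (n = 8). That embryo's DUX-linked list summed to 1133 CPM, the lowest of the DUX-LOF group. AW822073 was not called in internal reads, with log2 fold changes from -0.45 to 1.09 over the 5 comparisons of groups. In 5′ reads it was higher in DUX-LOF than in control embryos (2.52 ± 0.90, edgeR adjusted p = 0.046), where the highest DUX-LOF embryo held 121.5 CPM and the group without embryo 10 averaged 3.82 ± 2.47 CPM (n = 8), against 3 ± 4.24 CPM in control embryos (n = 9). Lims1, which encodes an adaptor protein of focal adhesions and lies within 200 kb, was lower in double-LOF than in control embryos (-0.76 ± 0.24, edgeR adjusted p = 0.0224, internal reads).

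**Figure D2:**
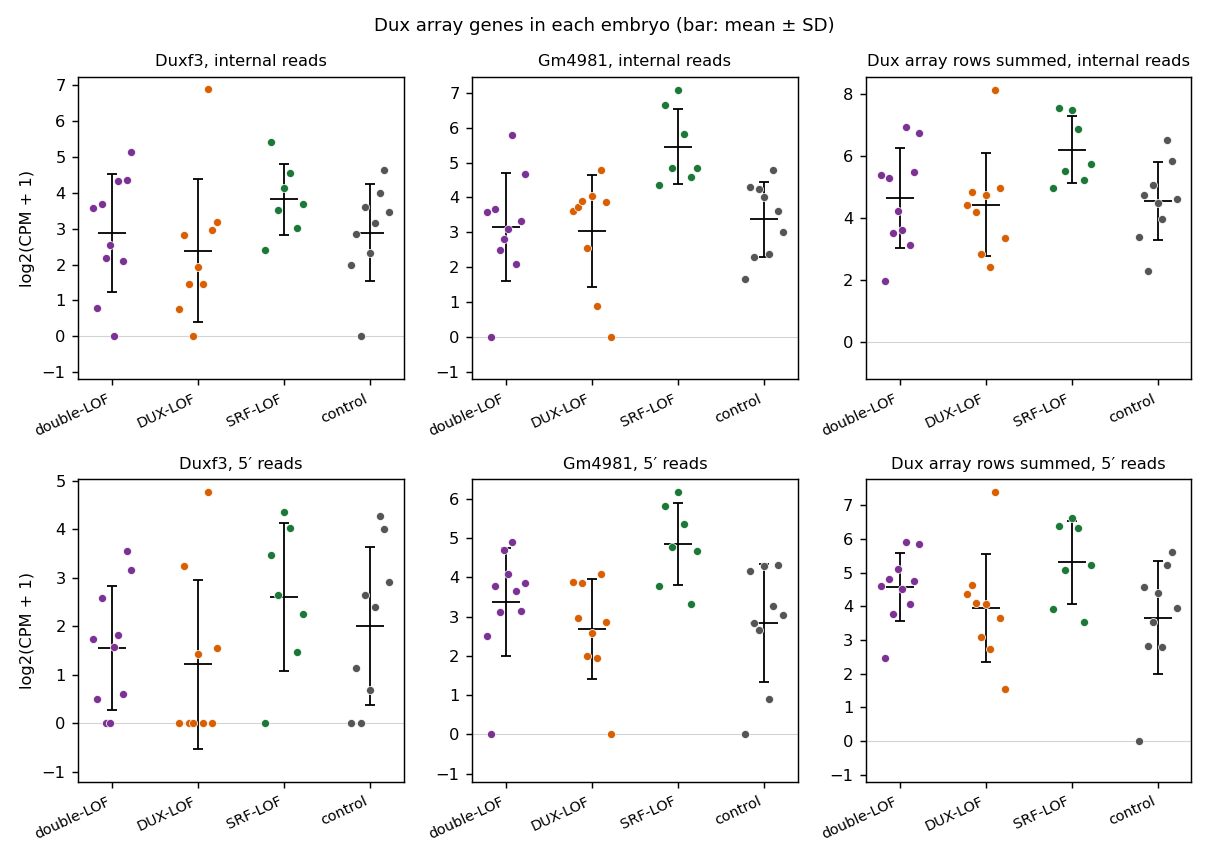
Levels of Duxf3, of Gm4981 and of the 5 array rows together, as log2(CPM + 1) (vertical axis), in internal reads (top) and 5′ reads (bottom); each point is 1 embryo and bars are mean ± SD. DUX-LOF embryo 10 is the point far above its group for Duxf3, at 117 CPM in internal reads, and SRF-LOF embryos sit high for Gm4981.

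Duxbl1 (ENSMUSG00000048502.14, chromosome 14, 25978577 to 25990088, plus strand) was lower in both groups that received the DUX oligonucleotide than in control embryos. In internal reads its lowest, median and highest levels were 1.94, 6.76 and 31.4 CPM in double-LOF and 0, 12.5 and 43.7 CPM in DUX-LOF embryos. They were 13.5, 47.3 and 111 CPM in SRF-LOF and 37.1, 56.8 and 81.2 CPM in control embryos. All 10 double-LOF embryos lay below the lowest control, a separation shared by 1.29% of genes, and 8 of 9 DUX-LOF embryos did so, with DUX-LOF embryo 11 as the exception. SRF-LOF embryos overlapped the control range, with SRF-LOF embryo 3 above it and 2 embryos below it.

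Mean Duxbl1 levels were 12 ± 11.1 CPM in double-LOF (SD, n = 10), 16.6 ± 12.9 CPM in DUX-LOF (n = 9), 51.2 ± 30.1 CPM in SRF-LOF (n = 7) and 56.7 ± 14.8 CPM in control embryos (n = 9). Its log2 fold change against control was -2.19 ± 0.46 in double-LOF embryos (4.58-fold lower, edgeR adjusted p = 0.000817). For DUX-LOF against control it was -1.74 ± 0.46 (3.35-fold lower, adjusted p = 0.00776), and for double-LOF against SRF-LOF -2.05 ± 0.48 (4.14-fold lower, adjusted p = 0.00173). Neither SRF-LOF against control (-0.14 ± 0.48, adjusted p = 0.865) nor double-LOF against DUX-LOF (-0.45 ± 0.46, adjusted p = 0.876) passed the test. The interaction was -0.31 ± 0.66 (adjusted p = 0.916), with a 95% interval of -1.60 to 0.98.

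In 5′ reads Duxbl1 had lowest, median and highest levels of 0, 10.6 and 21.4 CPM in double-LOF and 0, 5.66 and 23.6 CPM in DUX-LOF embryos. SRF-LOF embryos had 15.6, 23.9 and 97.3 CPM and control embryos 12.2, 22.4 and 48.6 CPM. Here 7 of 10 double-LOF and 7 of 9 DUX-LOF embryos lay below the lowest control, so the groups overlapped. DUX-LOF against control was -1.87 ± 0.54 (3.66-fold lower, edgeR adjusted p = 0.0124) and double-LOF against SRF-LOF -1.61 ± 0.52 (adjusted p = 0.0195), while double-LOF against control, -1.29 ± 0.50, missed the threshold (adjusted p = 0.0582). Without SRF-LOF embryo 3 the double-LOF against SRF-LOF value was -1.07 and no longer passed (adjusted p = 0.111). When libraries were scaled to ERCC spike-ins or to maternal transcripts, DUX-LOF against control no longer passed in either read class. It was -1.59 (adjusted p = 0.0988) under ERCC and -1.25 (adjusted p = 0.0694) under maternal scaling in internal reads, and -1.63 (adjusted p = 0.124) and -1.73 (adjusted p = 0.0726) in 5′ reads. Double-LOF against SRF-LOF in 5′ reads was -1.36 (adjusted p = 0.137) under ERCC and -0.84 (adjusted p = 0.314) under maternal scaling.

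Duxbl3 (ENSMUSG00000072672.10, chromosome 14, 26257962 to 26269436, plus strand) had few reads, 215 internal reads over all embryos, and Duxbl2 (ENSMUSG00000072675.12, chromosome 14, 26118349 to 26129763, plus strand) had 193. Their internal counts were equal in 32 of 35 embryos, 26 of them with reads. Lowest, median and highest levels of Duxbl3 were 0, 5.06 and 14.4 CPM in double-LOF, 0.708, 10.5 and 24.4 CPM in DUX-LOF, 0, 3.97 and 16.6 CPM in SRF-LOF and 0, 2.31 and 3.91 CPM in control embryos. Of the DUX-LOF embryos, 6 of 9 lay above the highest control, and the groups overlapped. The log2 fold change of DUX-LOF against control was 2.08 ± 0.74 (4.23-fold higher, edgeR adjusted p = 0.0477). It lost its call in 12 of the 29 fits that left out 1 embryo and still tested the gene, DUX-LOF embryo 10 and 8 of the 9 control embryos among those left out (adjusted p up to 0.0775). The call was also lost with no count filter (adjusted p = 0.0671), with ERCC scaling (0.141) and without double-LOF embryo 6, the 1 internal library under 0.25 of the median total (0.0514), at log2 fold changes of 2.08, 1.94 and 2.08. With at most 3.91 CPM in control embryos, Duxbl3 passed the count filter through the other groups, of which DUX-LOF had the highest median. Its place among the tested genes thus depended on the group where it was high, which the adjusted p does not allow for. In 5′ reads, where Duxbl3 was too low to test, DUX-LOF embryos had a median of 4.95 CPM and control embryos 1.87 CPM. Duxbl2 was tested in neither read class; its means in internal reads were 5.05 ± 4.36 CPM in double-LOF, 7.36 ± 6.17 CPM in DUX-LOF, 4.96 ± 6.45 CPM in SRF-LOF and 2.29 ± 1.27 CPM in control embryos.

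Since the 3 genes share their coding sequence, their reads were also summed per embryo. Internal counts of Duxbl2 and Duxbl3 were equal in 26 of the 29 embryos with reads on either. The sum may therefore hold the same reads more than once, which was not tested. Summed Duxbl1, Duxbl2 and Duxbl3 reads had lowest, median and highest levels of 11.4, 21.8 and 36.0 CPM in double-LOF and 15.6, 31.6 and 48.9 CPM in DUX-LOF embryos. They were 42.2, 47.8 and 128 CPM in SRF-LOF and 41.9, 61.2 and 87.0 CPM in control embryos. Every double-LOF embryo lay below every control and every SRF-LOF embryo, separations that 1.29% and 2.81% of single genes showed, and 6 of 9 DUX-LOF embryos lay below every control. Means were 22.1 ± 8.45 CPM in double-LOF, 34.0 ± 11.3 CPM in DUX-LOF, 61.0 ± 30.8 CPM in SRF-LOF and 61.2 ± 16.6 CPM in control embryos, so the family sum in double-LOF was 0.362 of the control mean and that in DUX-LOF 0.556. In 5′ reads the means were 15.6 ± 4.24 CPM in double-LOF, 15.6 ± 6.38 CPM in DUX-LOF, 39.7 ± 33.8 CPM in SRF-LOF and 35.1 ± 12.2 CPM in control embryos, and the groups overlapped. No test was run on the sums.

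**Figure D3:**
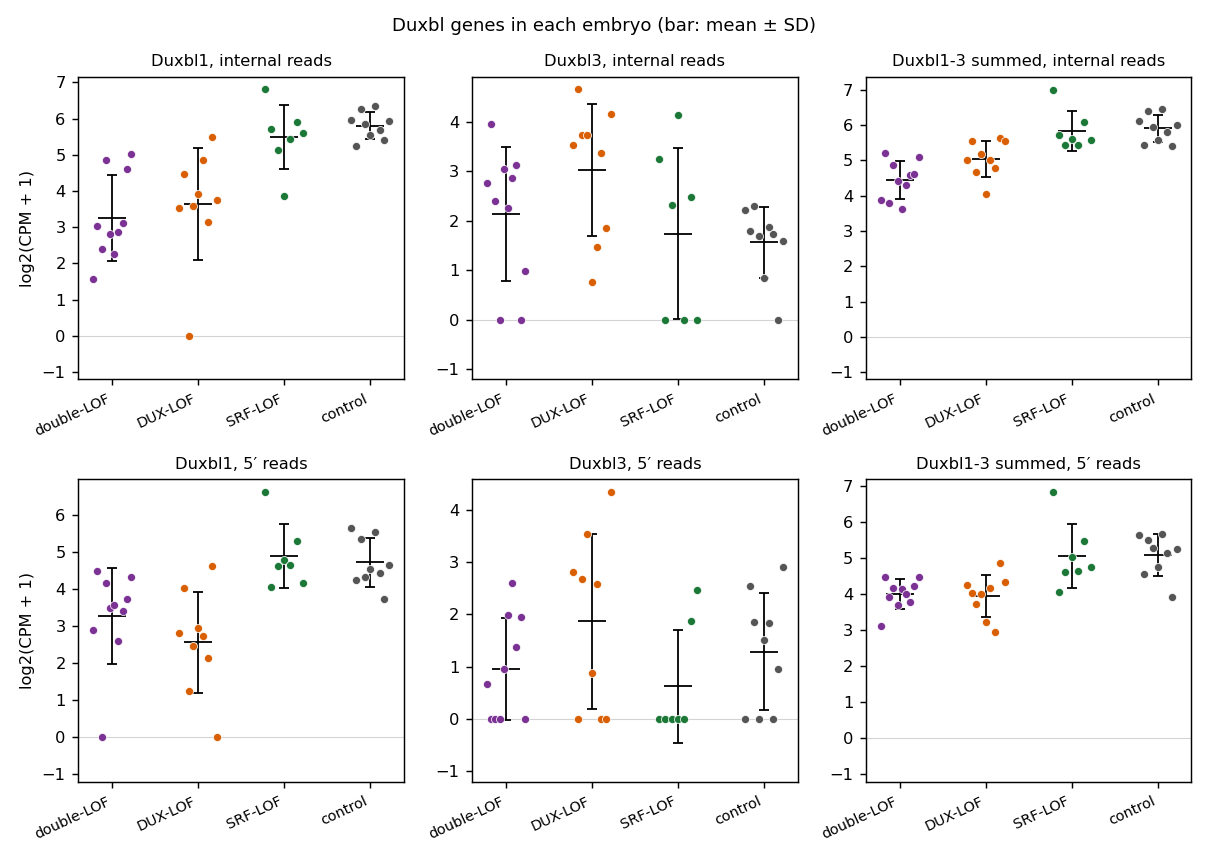
Levels of Duxbl1, of Duxbl3 and of Duxbl1, Duxbl2 and Duxbl3 together, as log2(CPM + 1) (vertical axis), in internal reads (top) and 5′ reads (bottom); each point is 1 embryo and bars are mean ± SD. In internal reads double-LOF embryos lie below all control embryos for Duxbl1 and for the sum, while Duxbl3 is higher in most DUX-LOF embryos.

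Within 100 kb of the Duxbl genes, Cphx2, a homeobox gene of the cytoplasmic polyadenylated homeobox family, was lower in internal reads in double-LOF (-1.89 ± 0.50, edgeR adjusted p = 0.00609) and in DUX-LOF (-1.40 ± 0.50, adjusted p = 0.0484) than in control embryos. In 5′ reads neither passed, at 0.01 ± 0.60 and -0.89 ± 0.62 (adjusted p = 0.996 and 0.341). Its family members Cphx1 and Cphx3 were not called in internal reads, at 1.24 ± 0.67 and 0.47 ± 0.98 in double-LOF against control (adjusted p = 0.204 and 0.794). In 5′ reads Cphx3 was higher in DUX-LOF than in control embryos (3.41 ± 1.22, edgeR adjusted p = 0.0482). No 5′ read fell on Cphx3 in 3 of 9 DUX-LOF, 8 of 9 control, 9 of 10 double-LOF and 7 of 7 SRF-LOF embryos. It therefore passed the count filter mainly through the group where it was high, which the adjusted p does not allow for. Reads of these 3 related genes may be split between them uncertainly.

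Dppa2 (ENSMUSG00000072419.5, chromosome 16, 48303908 to 48319723, plus strand) was abundant in every embryo. Lowest, median and highest internal levels were 36.3, 122.5 and 221 CPM in double-LOF and 66.5, 87.7 and 261.5 CPM in DUX-LOF embryos. SRF-LOF embryos had 79.7, 155 and 218 CPM and control embryos 65.7, 157 and 265 CPM. The groups overlapped, with double-LOF embryos 7 and 10 below every control. Dppa2 passed the test in no comparison of internal reads: against control it was -0.37 ± 0.30 in double-LOF (edgeR adjusted p = 0.412), -0.40 ± 0.30 in DUX-LOF (0.403) and -0.03 ± 0.32 in SRF-LOF (0.956). The 95% intervals of these log2 fold changes lay between -0.99 and 0.60.

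In 5′ reads Dppa2 averaged 104 ± 35.5 CPM in double-LOF (n = 10) and 180 ± 66.0 CPM in SRF-LOF embryos (n = 7), and 6 of 10 double-LOF embryos lay below the lowest SRF-LOF embryo. That difference, -0.79 ± 0.30, passed narrowly (1.73-fold lower, edgeR adjusted p = 0.0474). It passed under DESeq2 and in 10 of 35 fits that left out 1 embryo. It missed the threshold with DESeq2 size factors (-0.75, adjusted p = 0.0559), no count filter (-0.79, 0.0815), only the groups compared (-0.74, 0.0531) and ERCC scaling (-0.34, 0.646), and turned to 0.25 (adjusted p = 0.647) with libraries scaled to maternal transcripts.

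Dppa4 (ENSMUSG00000058550.15, chromosome 16, 48283733 to 48294237, plus strand), which lies beside Dppa2, differed widely between embryos of the same group. In internal reads the lowest, median and highest levels were 20.5, 115 and 335 CPM in double-LOF and 83.8, 175 and 314 CPM in DUX-LOF embryos. Levels in SRF-LOF embryos 3 to 9 were 221, 9.32, 46.3, 4.16, 14.1, 170 and 8.86 CPM. In control embryos 1, 2, 3, 4, 5, 6, 8, 9 and 10 they were 283, 6.18, 208, 147, 266, 299, 76.3, 10.2 and 137 CPM. SRF-LOF embryos 3 and 8 lay with most control embryos, and control embryos 2 and 9 with the low SRF-LOF embryos. No DUX-LOF embryo was as low as SRF-LOF embryos 4, 5, 6, 7 and 9 or control embryos 2, 8 and 9, and all ranges overlapped.

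Mean Dppa4 levels were 129 ± 85.0 CPM in double-LOF, 191 ± 89.9 CPM in DUX-LOF, 67.7 ± 89.7 CPM in SRF-LOF and 159 ± 113 CPM in control embryos. No comparison passed the test in internal reads: against control the log2 fold change was -0.31 ± 0.58 in double-LOF (edgeR adjusted p = 0.766), 0.26 ± 0.59 in DUX-LOF (0.813) and -1.23 ± 0.65 in SRF-LOF (0.243). In 5′ reads SRF-LOF against control was -1.40 ± 0.69 (adjusted p = 0.209), and double-LOF embryo 7 held no Dppa4 read. The same embryos were low in 5′ reads, at 3.67, 6.77, 6.53 and 16 CPM in SRF-LOF embryos 4, 6, 7 and 9 and 5.99 and 10.3 CPM in control embryos 2 and 9. SRF-LOF embryos 3 and 8, the highest in Dppa4 of their group, were also left out, after the data were seen. SRF-LOF against control was then -3.28 ± 0.70 and double-LOF against SRF-LOF 2.98 ± 0.68 in internal reads. Leaving out the highest embryos favours a lower SRF-LOF level, so these values are no test of Dppa4.

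The embryos' other measures stood beside Dppa4 as follows. Summed DUX-linked genes were 10798, 6481, 11709 and 14030 CPM in SRF-LOF embryos 4, 6, 7 and 9 and 10846 and 12362 CPM in control embryos 2 and 9, while SRF-LOF embryos 3 and 8 had 4993 and 4641 CPM. Control embryos 8 and 10, with 76.3 and 137 CPM of Dppa4, had 18190 and 10848 CPM of these genes. Double-LOF embryo 7, with 20.5 CPM of Dppa4 in internal reads and 0 in 5′ reads, went the other way, with 1653 CPM of DUX-linked genes. Centred within groups, log2(CPM + 1) of Dppa4 correlated with the log2 sum of DUX-linked genes at r = -0.43 (Spearman's rho -0.44) and with that of maternal transcripts at r = -0.57 (rho -0.52), over 35 embryos that share library and depth. The part of either in the Dppa4 differences was not tested.

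Nelfa (ENSMUSG00000029111.7, chromosome 5, 33897916 to 33936413, minus strand) was lower in double-LOF than in SRF-LOF embryos. In internal reads its lowest, median and highest levels were 57.8, 117 and 262 CPM in double-LOF and 83.8, 87.0 and 164 CPM in DUX-LOF embryos. They were 135, 184 and 350 CPM in SRF-LOF and 75.0, 146.5 and 328 CPM in control embryos. Of 10 double-LOF embryos 7 lay below the lowest SRF-LOF embryo, and the groups overlapped. Double-LOF against SRF-LOF was -0.82 ± 0.29 (1.77-fold lower, edgeR adjusted p = 0.0323), with means of 127 ± 64.5 CPM in double-LOF (n = 10) and 223 ± 90.1 CPM in SRF-LOF embryos (n = 7). DUX-LOF against control, -0.74 ± 0.28, missed the threshold (adjusted p = 0.0668), as did double-LOF against control (-0.41 ± 0.27, adjusted p = 0.309) and SRF-LOF against control (0.41 ± 0.30, adjusted p = 0.38).

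In 5′ reads the lowest, median and highest Nelfa levels were 31.7, 56.3 and 140 CPM in double-LOF and 50.1, 58.6 and 76.3 CPM in DUX-LOF embryos. SRF-LOF embryos had 104, 155.5 and 295 CPM and control embryos 21.7, 88.0 and 124 CPM. SRF-LOF embryos were high, and 8 of 10 double-LOF embryos lay below the lowest SRF-LOF embryo. Double-LOF against SRF-LOF was -1.23 ± 0.28 (2.35-fold lower, edgeR adjusted p = 0.00117), and SRF-LOF against control, 0.98 ± 0.29, missed the threshold (adjusted p = 0.0564). Scaled to maternal transcripts, double-LOF against SRF-LOF was 0.15 (adjusted p = 0.614) in internal reads, the opposite direction, and -0.37 (adjusted p = 0.262) in 5′ reads, where ERCC scaling gave -0.88 (adjusted p = 0.113). The internal call was also lost with ERCC scaling (-0.41, adjusted p = 0.527), DESeq2 size factors (-0.72, 0.0517), no count filter (-0.82, 0.067) and only the groups compared (-0.82, 0.0511). It held in 28 of 35 fits that left out 1 embryo, and was lost without any 1 of double-LOF embryos 2, 5, 8 and 10 or SRF-LOF embryos 4, 5 and 6 (adjusted p up to 0.104). Within groups its log2(CPM + 1) correlated with the log2 sum of maternal transcripts at r = 0.66 (Spearman's rho 0.66, 35 embryos), and the part of maternal RNA in the group difference was not tested.

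**Figure D4:**
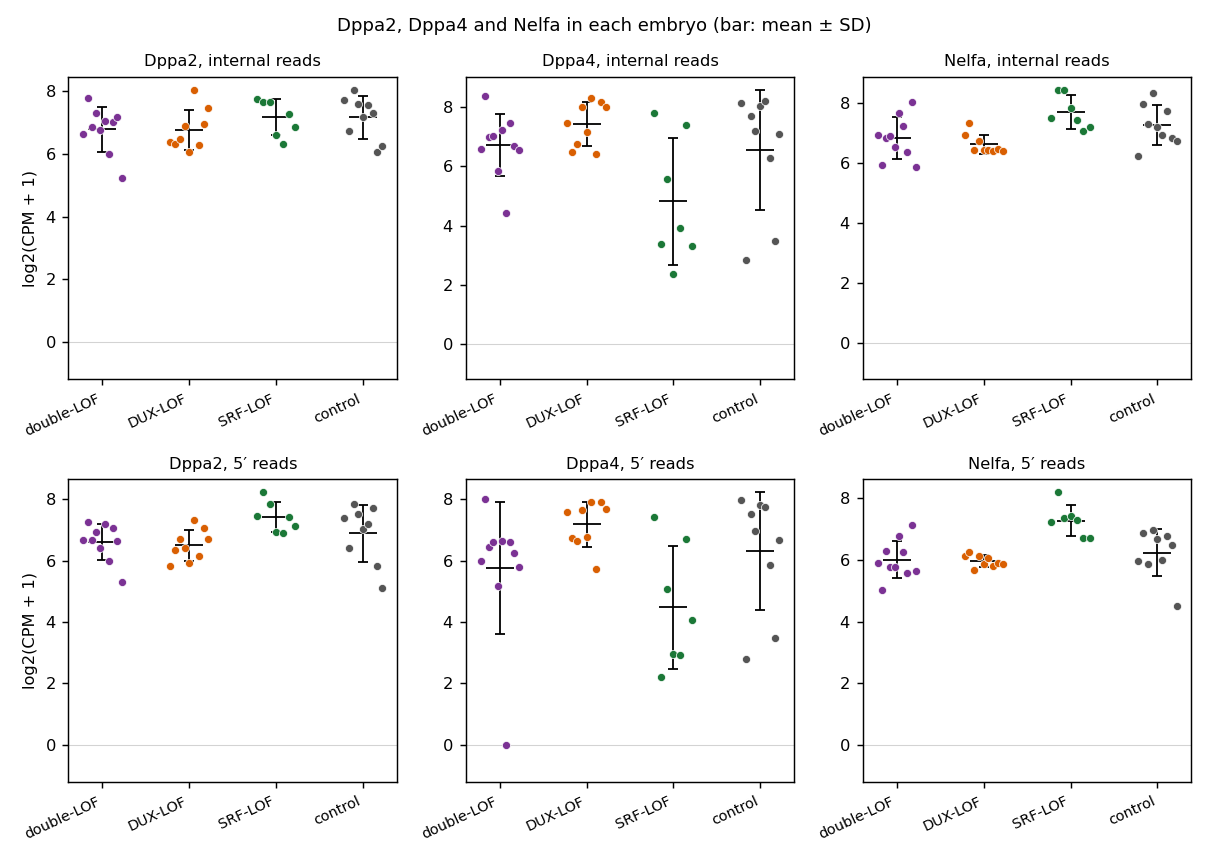
Levels of Dppa2, Dppa4 and Nelfa as log2(CPM + 1) (vertical axis), in internal reads (top) and 5′ reads (bottom); each point is 1 embryo and bars are mean ± SD. In internal reads Dppa4 ranges from 4.16 to 221 CPM over the 7 SRF-LOF embryos, and the mean of Nelfa is highest in SRF-LOF embryos in both read classes.

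**Figure D5:**
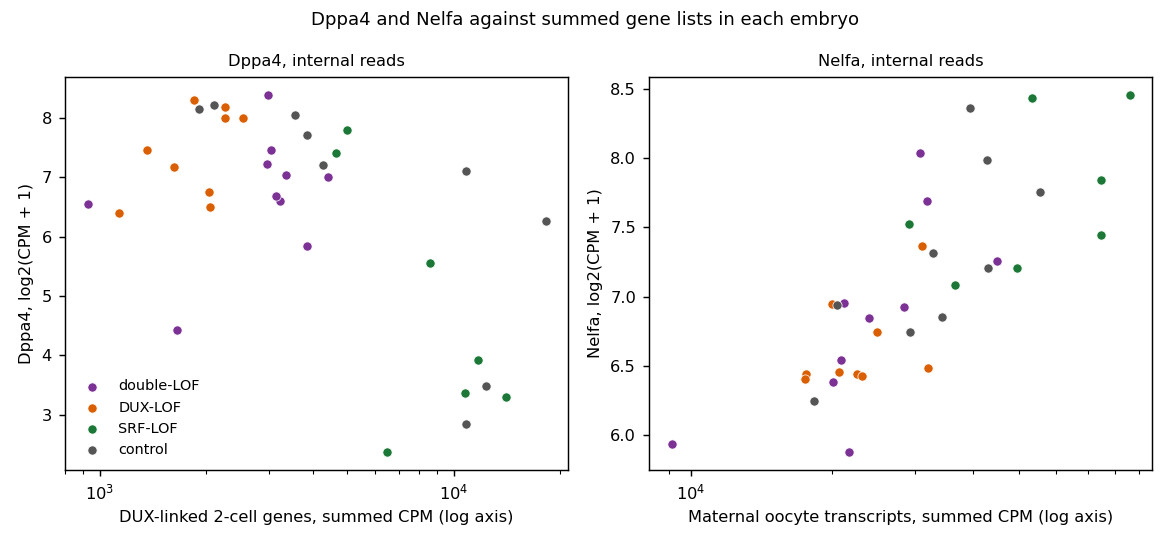
Left, Dppa4 against the summed level of DUX-linked 2-cell genes; right, Nelfa against the summed level of maternal oocyte transcripts, both in internal reads with a log horizontal axis, 1 point per embryo. The SRF-LOF and control embryos lowest in Dppa4 have DUX-linked sums of 6481 CPM or more, while the double-LOF embryo lowest in Dppa4 has 1653 CPM, and Nelfa is higher where the maternal sum is higher.

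Genes of the same pathways were counted in internal reads from lists chosen with earlier results of these data known. The shares over all genes, against which each count is set, were 9.58% higher and 9.8% lower in double-LOF, 8.74% higher and 8.22% lower in DUX-LOF, and 1.67% called and 23.5% at an unadjusted p under 0.05 in SRF-LOF, each against control. Of 11 tested partners in pausing (the other NELF subunits, DSIF, which binds paused polymerase, and P-TEFb, the kinase that releases it, with its regulators), 1 was higher and 1 lower in double-LOF than in control embryos, with a median log2 fold change of -0.27 against -0.08 over all genes. In DUX-LOF against control 2 were higher and 0 lower (median 0.06 against -0.08). They were Nelfb, another NELF subunit, at 46.8 CPM in DUX-LOF and 13.9 CPM in control embryos (1.74 ± 0.52, edgeR adjusted p = 0.0185), and Supt5, a DSIF subunit (0.81 ± 0.28, adjusted p = 0.0377). Both were also the 2 of 11 genes higher in double-LOF than in SRF-LOF embryos, Nelfb at 2.46 ± 0.61 and Supt5 at 1.43 ± 0.30 (adjusted p = 0.00271 and 0.000634), where Nelfa was lower. In that comparison 14.3% of all genes were higher and 13.2% lower. In double-LOF against control the called genes were Ccnt2, a cyclin of P-TEFb, at 0.65 ± 0.22 (adjusted p = 0.0361), and Supt4a, the other DSIF subunit, at -1.07 ± 0.38 (adjusted p = 0.046).

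Other reported inducers of Dux or of the 2-cell-like state numbered 9, all tested. In double-LOF and in DUX-LOF, each against the shared control embryos, 2 were higher and 3 lower (over all genes 9.58% and 9.8% in double-LOF, 8.74% and 8.22% in DUX-LOF), with medians of 0.18 and -0.11 against -0.08 over all genes in both. Trp53, which encodes p53, was lower in double-LOF (-2.55 ± 0.32, edgeR adjusted p = 5.83e-07) and in DUX-LOF (-1.97 ± 0.32, adjusted p = 5.25e-05). Zscan4c, a DUX target, was lower at -2.61 ± 0.67 and -3.75 ± 0.74 (adjusted p = 0.00528 and 0.000491). Zfp352 was lower at -0.96 ± 0.29 and -1.35 ± 0.31 in the same comparisons (adjusted p = 0.0187 and 0.00212). Zscan4c and Zfp352 are also on the list of DUX-linked genes below, so their calls are counted in both lists. Top2a, a topoisomerase, was higher at 0.89 ± 0.28 and 1.23 ± 0.29, and Kmt2b, a histone methyltransferase, at 1.07 ± 0.29 and 0.95 ± 0.29. In SRF-LOF against control 0 of 9 passed by edgeR, 0 by DESeq2 and 5 at an unadjusted p under 0.05, which 23.5% of all genes reached (median -0.69 against -0.10 over all genes).

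Of 27 tested repressors of Dux or of the 2-cell-like state, 8 were higher and 4 lower in double-LOF than in control embryos, where 9.58% and 9.8% of all genes were (median log2 fold change 0.35 against -0.08 over all genes). In DUX-LOF against control 5 were higher and 3 lower, where 8.74% and 8.22% of all genes were (median 0.55 against -0.08). Trim28, a co-repressor of retroelements, was higher in double-LOF embryos at 316 CPM, against 105 CPM in control embryos (1.58 ± 0.37, edgeR adjusted p = 0.00258). Ehmt1, a histone methyltransferase, was higher at 1.39 ± 0.31 in double-LOF and 1.5 ± 0.32 in DUX-LOF (adjusted p = 0.00153 and 0.00107). Uhrf1 and Dnmt1, which maintain DNA methylation, were higher in double-LOF by 1.54 ± 0.27 and 1.21 ± 0.28 and in DUX-LOF by 1.13 ± 0.27 and 1.11 ± 0.28. Chaf1a, the large subunit of the histone chaperone CAF-1, whose loss releases the 2-cell-like state in mouse embryonic stem cells, was higher by 1.18 ± 0.22 in double-LOF and 1.27 ± 0.23 in DUX-LOF. Hdac2, a histone deacetylase, was lower, at -1.15 ± 0.26 in double-LOF and -1.43 ± 0.27 in DUX-LOF. In SRF-LOF against control 0 of 27 were called by edgeR, 0 by DESeq2 and 8 at an unadjusted p under 0.05, which 23.5% of all genes reached (median -0.07 against -0.10).

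Among the other developmental pluripotency associated genes, Dppa1, Dppa3 and Dppa5a, only Dppa3, a maternal protein that protects the maternal genome from demethylation, was called in double-LOF or DUX-LOF against control. It stood at 680 CPM in double-LOF, 977 CPM in DUX-LOF, 1965 CPM in SRF-LOF and 2609 CPM in control embryos, lower than control by -1.94 ± 0.26 in double-LOF and -1.42 ± 0.27 in DUX-LOF (edgeR adjusted p = 2.86e-06 and 0.000309). Of the 39 DUX-linked genes, Duxf3 included, 14 were lower and 2 higher in double-LOF, 24 lower and 1 higher in DUX-LOF, and in SRF-LOF 0 were called by edgeR, 1 by DESeq2 and 4 at an unadjusted p under 0.05, each against control, with medians of -1.05, -1.81 and 0.17 against -0.08, -0.08 and -0.10 over all genes. Zscan4f stood at 44.9 CPM in double-LOF, 26.9 CPM in DUX-LOF, 516 CPM in SRF-LOF and 558 CPM in control embryos. B020004J07Rik was higher instead, at 63.7 CPM in double-LOF and 39.9 CPM in DUX-LOF against 2.12 CPM in control embryos. Of 46 tested maternal transcripts, 10 were lower and 2 higher in double-LOF, 19 lower and 1 higher in DUX-LOF and 6 higher and 0 lower in SRF-LOF, each against control, with medians of -0.51, -0.63 and 0.59 against -0.08, -0.08 and -0.10 over all genes. Over all genes edgeR found 9.8% lower and 9.58% higher in double-LOF, 8.22% lower and 8.74% higher in DUX-LOF, and called 1.67% in SRF-LOF. DESeq2 called more genes than edgeR in SRF-LOF against control, as given below.

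Of 8 tested homeobox genes related to the PRD class, 0 were called in double-LOF against control by edgeR or by DESeq2 (median 0.10 against -0.08). Over all genes edgeR called 9.58% higher and 9.8% lower there, 8.22% lower in DUX-LOF and 1.67% in SRF-LOF, each against control. Nobox, an oocyte homeobox gene, was lower in DUX-LOF, at 38.3 CPM against 139 CPM in control embryos (-1.84 ± 0.63, edgeR adjusted p = 0.0378). In SRF-LOF against control, Obox2 (1.91 ± 0.41, adjusted p = 0.0219) and Obox1 (1.68 ± 0.41, adjusted p = 0.0301), homeobox genes of the oocyte and early embryo, were higher.

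The genes most like each member were sought by Pearson's r of log2(CPM + 1) centred within groups, over 35 embryos and all genes tested. Duxf3 was most like AW822073 of its own array (r = 0.81, Spearman's rho 0.78), with which it shares 32.5% of its 50-base words, then BC017158 (0.74) and Vti1b (0.72). Dppa4 was most like Mcm3 (0.95), Uap1l1 (0.94) and Pip5k1a (0.94), Dppa2 like Crnkl1 (0.86), Tmem41b (0.83) and Cnbp (0.80), and Nelfa like Cnot7 (0.80), one of the maternal transcripts, and Srgn (0.80). Duxbl1 and Duxbl3 had no counterpart above 0.60. Between members, Dppa2 and Dppa4 gave r = 0.59 and each ran opposite to Duxf3, at -0.48 and -0.46, and to Gm4981, at -0.67 and -0.59. Nelfa and Duxf3 gave r = 0.05.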

How the data were processed

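Smart-seq+5′ libraries of 35 single embryos were used, 2 files each. Internal reads were deposited as read counts per gene; the 5′ reads were deposited as whole-number values that were treated as estimated counts (expected counts), and rounding changed none. The submitters' processing notes name STAR 2.7.11a and the GRCm38 build. The counter, strand and treatment of multi-mapping reads are not given in the sources used here. Each file held 54838 gene rows, 1395 repeat rows and 92 ERCC rows, and GENCODE M21 named 53947 gene IDs. The gene counts per embryo are given in the report.

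Gene counts were scaled by TMM, filtered with filterByExpr (11940 genes in internal and 11749 in 5′ reads) and tested with edgeR 4.0.16 quasi-likelihood (limma 3.58.1, R 4.3.3), all 4 groups in 1 fit, with Benjamini-Hochberg adjustment at 0.05. Nothing in the labels says whether embryos came from separate litters, so p-values measure the spread between embryos. DESeq2 1.42.0 was an alternative. Python 3.11.15, pandas 2.3.3, numpy 2.4.6, SciPy 1.17.1, Biopython 1.88 and matplotlib 3.10.9 served for the rest. The edgeR procedure was tested on simulated data. Other settings were DESeq2 size factors, no count filter, scaling to ERCC or to maternal transcripts, only the groups compared, a replicate block, without the 1 internal library under 0.25 of the median total, and leaving out each embryo. Duxf3 also had exact permutation tests with a pseudocount of 1 CPM. The members and lists were chosen with earlier results of these data known. All 7 members were named, with up to 4 called genes per list and comparison with a mean of at least 5 CPM, and neighbours within 200 kb of Duxf3 or 100 kb of Duxbl genes with at least 10 counts. Of 181 list entries 178 matched. Intervals on pooled CPM cover counting error only.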

Additional observations from a re-analysis of the deposited data

Results flagged for a closer look

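In 56 groups of embryos, 9 had a highest embryo far from the rest by Dixon's test at 95%. Chance flags about 1 in 20 where values are normal and groups independent. Here the same embryos recur across genes and read classes, and several genes have few reads, so 9 does not measure an excess. DUX-LOF embryo 10 held 117 CPM of Duxf3 in internal reads, against 8.12 CPM in the next embryo, and 26.2 CPM in 5′ reads, against 8.48 CPM. Double-LOF embryo 2 held 335 CPM of Dppa4 in internal reads (next 176 CPM) and 259 CPM in 5′ reads (next 99 CPM). Nelfa reached 164 CPM in DUX-LOF embryo 4 in internal reads (next 122 CPM) and 295 CPM in SRF-LOF embryo 4 in 5′ reads (next 172 CPM). Duxbl1 stood at 97.3 CPM in SRF-LOF embryo 3 in 5′ reads (next 38.3 CPM). Duxbl2 in 5′ reads stood at 14.3 CPM in double-LOF embryo 3 (next 5.04 CPM) and at 16.5 CPM in SRF-LOF embryo 3 (next 5.27 CPM).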

How the results depend on the processing

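Members called changed with the processing as follows, and the cause was not tested. Apart from the counts below for SRF-LOF against control, calls over all genes under each setting or without each embryo are not given. These member counts are therefore not set against other genes. In internal reads, DUX-LOF against control gave 2; it gave 1 (Duxbl1) with no count filter, with only the groups compared, with the replicate block and without the small library, 1 (Duxbl3) with scaling to maternal transcripts and 0 with ERCC scaling. Double-LOF against SRF-LOF gave 2, and 1 (Duxbl1) under DESeq2 size factors, no count filter, either scaling, only the groups compared and the replicate block, and 3 (Dppa4, Duxbl1 and Nelfa) without SRF-LOF embryos 3 and 8. SRF-LOF against control and the interaction each gave 0, and 1 (Dppa4) without SRF-LOF embryos 3 and 8, left out after the data were seen. In 5′ reads, double-LOF against control gave 0, and 1 (Duxbl1) under DESeq2 and with only the groups compared; DUX-LOF against control gave 1, and 0 under either scaling. SRF-LOF against control gave 0, 1 (Nelfa) under DESeq2 and 2 (Dppa4 and Nelfa) without SRF-LOF embryos 3 and 8. Double-LOF against SRF-LOF gave 3, 0 under either scaling, and 2 (Dppa4 and Nelfa) without SRF-LOF embryos 3 and 8. It gave 2 (Duxbl1 and Nelfa) with DESeq2 size factors, no count filter, only the groups compared and the replicate block. The Dppa4 calls made without SRF-LOF embryos 3 and 8 are no test, since those are its highest SRF-LOF embryos.

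Leaving out each embryo gave 1 to 1 calls for double-LOF against control, 1 to 3 for DUX-LOF against control and 1 to 2 for double-LOF against SRF-LOF in internal reads. In 5′ reads it gave 0 to 1 for double-LOF against control, 1 to 1 for DUX-LOF against control, 0 to 2 for SRF-LOF against control and 1 to 3 for double-LOF against SRF-LOF. With scaling to maternal transcripts, double-LOF against SRF-LOF turned to 0.15 for Nelfa in internal reads and to 0.25 for Dppa2 in 5′ reads. That scaling moved the median log2 fold change of all genes for double-LOF against SRF-LOF to 1 in internal reads, against 0.03, and ERCC scaling moved it to 0.40; for SRF-LOF against control they moved it to -0.60 and -0.45, against -0.10. Over all genes, SRF-LOF against control called 129 higher and 70 lower by edgeR and 360 higher and 513 lower by DESeq2. Over 41 same-number pairs of embryos the correlation ran from -0.547 to 0.532, with a median of 0.028 against 0.00372 for other pairs. Of the 41 pairs 15 exceeded 0.1, and 7 of 33 embryos were most like an embryo of their own number. Pairing by replicate number was not consistent, and whether some embryos were paired was not tested. The replicate block is therefore not read as a paired test.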
